A study of Mus musculus with 20 samples.

Results

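The NRF2 pathway is described here by 10 genes chosen by symbol: the regulators Nfe2l2 and Keap1 and the target genes Nqo1, Osgin1, Srxn1, Txnrd1, Gclc, Gclm, Hmox1 and Slc7a11. All 10 were found among the 46078 genes of the count table, and 9 passed the filter on low counts, Slc7a11 being the exception. Liver RNA was sequenced in 16 libraries, 4 in each of 4 groups. Mice of the DLE group were db/db and received 200 mg/kg of an extract of leaves of Dendrocalamus latiflorus, a bamboo. Those of the PGZ group were db/db and received 20 mg/kg of pioglitazone, an insulin sensitizer that acts through PPAR-gamma. Saline was given to db/db mice in the model group and to wild-type C57BL/6J mice in the normal group. All treatments lasted 12 weeks. The db/db mice of the DLE, PGZ and model groups share a mutation of the leptin receptor gene that makes them obese and diabetic. The labels do not give their strain background, age or sex, so strain and genotype cannot be told apart in comparisons with the normal group.

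NRF2, the protein of Nfe2l2, is a transcription factor that switches on antioxidant and detoxifying enzymes. In unstressed cells KEAP1 holds NRF2 and passes it to a ubiquitin ligase for breakdown, and oxidants or electrophiles that modify KEAP1 let NRF2 escape and enter the nucleus. There it binds antioxidant response elements together with small MAF proteins, mainly near genes that make glutathione, reduce thioredoxin or quinones, or break down haem. Because NRF2 is controlled largely at the level of the protein, its RNA need not follow its activity.

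The core of the antioxidant response element was searched only as the letters TGACNNNGC, on both strands (GRCm38.p6). The windows were those of RefSeq, 300 bases long, from 250 bases before to 50 bases after a gene start. Windows were at hand for 8 of the 10 genes, Gclc and Hmox1 being the others, and 4 of these 8 held the letters, against 14.0% of all 27025 genes with a window. These 4 stretches are shown because they are the matches near a start, with the matched letters in capitals, 5′ to 3′ on the strand of the gene:
Nfe2l2 (chr2:75704885-75704913, minus strand): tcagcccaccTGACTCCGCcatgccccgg
Srxn1 (chr2:152105542-152105570, plus strand): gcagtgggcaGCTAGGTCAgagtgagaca
Txnrd1 (chr10:82859104-82859132, plus strand): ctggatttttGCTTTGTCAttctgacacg
Gclm (chr3:122245413-122245441, plus strand): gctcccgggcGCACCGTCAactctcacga

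The match lay 240 bases before the start in Nfe2l2, 92 before the start of 1 of the 3 annotated Txnrd1 starts and 134 before that of Gclm, and began at base 29 of the transcript in Srxn1. Other forms of the element were not searched, so a window without a match may still hold one. The 2 genes that differed from normal liver in every db/db group, Nqo1 and Osgin1, held no match to TGACNNNGC in their windows. The 100 bases before their RefSeq starts follow because of that, with the letters TATAAA in capitals. Near its 5′ end the Osgin1 stretch holds, on the opposite strand, a form that was not searched. That form has G in place of the C before NNN. For Osgin1 the missing match therefore concerns the searched letters only, not the element. How often that form occurs in other windows was not counted. For Osgin1 the RefSeq start lies inside the GENCODE span of the gene, whose 5′ end at 119434124 was not searched. The letters TATAAA occur on either strand in 13.6% of all windows. That share is for the whole 300 bases of a window, not for the 100 bases and single strand shown.
Nqo1 (chr8:107403206-107403305, minus strand): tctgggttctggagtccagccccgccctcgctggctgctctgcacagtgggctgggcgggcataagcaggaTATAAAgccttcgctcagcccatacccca
Osgin1 (chr8:119437047-119437146, plus strand): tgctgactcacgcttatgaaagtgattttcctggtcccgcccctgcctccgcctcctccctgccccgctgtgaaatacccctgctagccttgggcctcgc

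Total counts ranged from 16922833 to 25119799 per library, and all levels are CPM, read counts scaled to library size after TMM normalization. Some libraries stood apart. The summed level of 11 acute-phase genes, which liver expresses in inflammation, was 175065 CPM in model_327 and 84126 in model_387, against 7111 and 15505 CPM in the other model libraries. It was 47706 CPM in model_DLE_361 and 42474 in model_PGZ_328, against 6727 to 10056 CPM in the other treated libraries and 6844 to 10224 CPM in normal libraries. Hepatocyte markers summed to 32403 to 108000 CPM in all 16 libraries, with none of the 8 at 0. In bulk RNA, fewer cells of a type and less RNA per cell cannot be told apart. Each library carries its own animal number, and no shared cage or day is labelled, so p-values measure only the spread between these libraries.

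Against normal liver, saline-treated db/db liver had more Nqo1 and Hmox1 RNA and less Osgin1 RNA. Neither gene of glutathione synthesis was called. Of the 9 genes tested in model versus normal, 2 rose and 1 fell. Among all 15744 genes tested, 6.18% rose and 2.9% fell. Their median log2 fold change was 0.59, and that over all genes was 0.07. Calls needed an adjusted p under 0.05 from the quasi-likelihood test of edgeR, where Benjamini-Hochberg adjustment covered the 15744 genes. DESeq2 called 4 of the 9, adding Srxn1, and limma called 4, with Srxn1 and Nfe2l2 but without Hmox1. Both called more of the 15744 genes than edgeR. DESeq2 called 1595 higher and 845 lower, and limma 2243 higher and 2044 lower.

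Nfe2l2 (ENSMUSG00000015839, GRCm38 chromosome 2, 75675513 to 75704641) encodes NRF2 itself. Its level was 135, 312, 451 and 323 CPM in DLE libraries, 202, 258, 218 and 240 in PGZ libraries, 130, 447, 149 and 303 in model libraries and 131, 142, 195 and 175 in normal libraries. All PGZ values lay above all normal values, whereas the model and DLE values overlapped the normal range. It averaged 257 ± 148 CPM in model and 161 ± 29.7 CPM in normal libraries (SD, n = 4 each), a difference that was not called (log2 fold change 0.68, SE 0.37, 95% interval -0.11 to 1.47, edgeR adjusted p = 0.24). DESeq2 did not call Nfe2l2 against normal in any db/db group, whereas limma called it higher in DLE (1.15, adjusted p = 0.00516), PGZ (0.65, adjusted p = 0.00979) and model libraries (1.03, adjusted p = 0.000869). In PGZ versus normal edgeR also called it with only those 2 groups in the fit (0.53, adjusted p = 0.0407). In each db/db group the lowest Nfe2l2 level belonged to the library with the highest acute-phase sum: model_DLE_361, model_PGZ_328 and model_327, with model_387 next. A fit without these 4 libraries kept only model_329 and model_407 (447 and 303 CPM) in the model group. There the model level was called higher than normal (log2 fold change 1.23, edgeR adjusted p = 0.00695), as was the DLE level (1.17, adjusted p = 0.00293). Because the libraries left out were low in Nfe2l2, leaving them out raises the db/db means, so these calls cannot serve as a test of the gene. The part of inflammation in these levels was not tested.

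Keap1 (ENSMUSG00000003308, chromosome 9, 21229730 to 21239361) encodes the inhibitor of NRF2. It averaged 50.1 ± 11.8 CPM in DLE, 47.4 ± 4.98 in PGZ, 56.9 ± 6.35 in model and 49.6 ± 9.1 CPM in normal libraries. No comparison called it, and its interval in model versus normal was -0.19 to 0.59 on the log2 scale. The antisense gene Gm16754 overlaps Keap1 and held 4856 reads over all libraries against 17209 for Keap1; since no strand setting is given in the sources used here, their reads may be mixed.

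**Figure D1:**
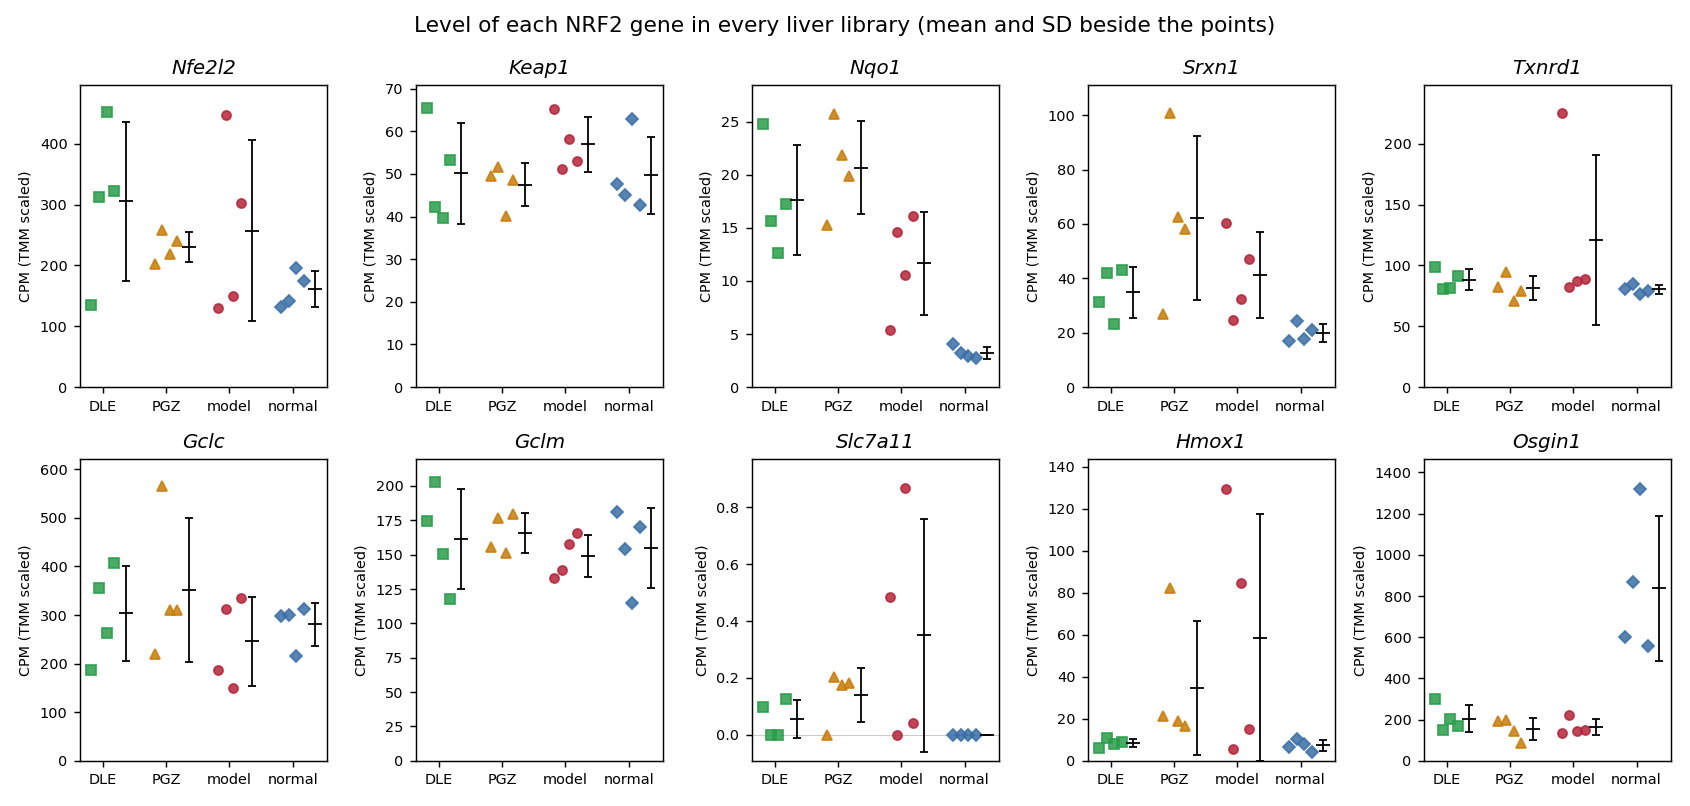
CPM of each of the 10 genes (vertical axes, linear, 1 panel per gene) in the DLE, PGZ, model and normal groups (horizontal axes). Each symbol is 1 library and the black bar beside it is the group mean with its SD (n = 4); Nqo1 lies higher and Osgin1 lower in every db/db library than in any normal library.

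Nqo1 (ENSMUSG00000003849, chromosome 8, 107388225 to 107403206) encodes a quinone reductase that turns reactive quinones into hydroquinones and is a classic readout of NRF2. It stood at 24.8, 15.7, 12.7 and 17.3 CPM in DLE libraries, at 15.2, 25.7, 21.9 and 19.8 in PGZ libraries, at 5.35, 14.6, 10.5 and 16.2 in model libraries and at 4.06, 3.17, 2.94 and 2.74 CPM in normal libraries. Every db/db library was above every normal one, and the lowest of them was model_327. Nqo1 averaged 11.7 ± 4.84 CPM in model libraries and 3.23 ± 0.584 CPM in normal libraries (log2 fold change 1.85, SE 0.31, edgeR adjusted p = 0.00269). This call held with any 1 library left out (adjusted p = 0.000243 to 0.0137). The gene was also higher in PGZ than in normal libraries (2.67, SE 0.32, adjusted p = 0.000106) and in DLE than in normal libraries (2.44, SE 0.32, adjusted p = 0.000312). These contrasts share the normal libraries and are not independent.

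Osgin1 (ENSMUSG00000074063, chromosome 8, 119434124 to 119446256) encodes a growth inhibitor induced by oxidative stress and is listed among NRF2 targets. It stood at 299, 151, 202 and 167 CPM in DLE libraries, at 193, 201, 146 and 85.4 in PGZ libraries, at 138, 222, 145 and 149 in model libraries and at 604, 869, 1322 and 556 CPM in normal libraries. The highest db/db value, in model_DLE_361, was below the lowest normal one. Osgin1 averaged 163 ± 39.5 CPM in model and 837 ± 351 CPM in normal libraries (log2 fold change -2.36, SE 0.35, edgeR adjusted p = 0.000936). It was also lower in PGZ (-2.42, SE 0.35, adjusted p = 0.000465) and DLE libraries (-2.03, SE 0.34, adjusted p = 0.00242) than in normal libraries. All 3 calls held with any 1 library left out, with a highest adjusted p of 0.014.

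Hmox1 (ENSMUSG00000005413, chromosome 8, 75093621 to 75100589) encodes haem oxygenase 1, which breaks haem down to biliverdin, iron and carbon monoxide, and which macrophages that clear red cells express strongly. It stood at 6.3, 10.8, 7.89 and 9.17 CPM in DLE libraries, at 21.3, 82.3, 18.8 and 16.4 in PGZ libraries, at 129, 5.81, 84.8 and 15 in model libraries and at 6.81, 10.3, 8.22 and 4.11 CPM in normal libraries. The model values ran from 5.81 to 129 CPM, with model_329 inside the range of the normal values. All PGZ values were above all normal and all DLE values.

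Hmox1 averaged 58.7 ± 58.7 CPM in model and 7.35 ± 2.59 CPM in normal libraries (log2 fold change 2.99, SE 0.78, edgeR adjusted p = 0.028). This call depended on the fit and on few libraries. It held in DESeq2 (3.01, adjusted p = 0.000295) and was lost in limma (log2 fold change 1.10, adjusted p = 0.194), with no filter (adjusted p = 0.0738) and with only the 2 groups compared (adjusted p = 0.11). It was also lost without any 1 normal library (adjusted p = 0.0592 to 0.0855), without model_327 (log2 fold change 2.25, adjusted p = 0.0968) and without model_387 (2.76, adjusted p = 0.0698). Without both, the log2 fold change was 0.50 (adjusted p = 0.753). PGZ libraries averaged 34.7 ± 31.8 CPM and were not called higher than normal (2.23, SE 0.76, adjusted p = 0.0641), although DESeq2 called the difference (2.25, adjusted p = 0.00933).

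Macrophage markers are given beside Hmox1 because such cells express it. In model versus normal 9 of 12 Kupffer cell markers and 7 of 9 markers of recruited macrophages rose, against 6.18% of all genes. The Kupffer sum was 192 to 303 CPM in DLE, 267 to 639 in PGZ, 211 to 1941 in model and 86.4 to 249 CPM in normal libraries. The recruited macrophage sum was 43.4 to 66.0 CPM in DLE, 114 to 288 in PGZ, 36.4 to 1191 in model and 18.4 to 31.0 CPM in normal libraries. No Kupffer marker was at 0 in any library, and of the recruited markers Gpnmb was at 0 in 3 normal libraries, Ms4a7 in 2 and Trem2 in 1. In model_327, which had the most Hmox1, the Kupffer sum of 214 CPM was within the normal range, while the recruited sum was 216 CPM. The highest sums of both lists, 1941 and 1191 CPM, belonged to model_387, which had less Hmox1 than model_327. Among PGZ libraries the most Hmox1 was in model_PGZ_360, which had an acute-phase sum of 10044 CPM and the largest recruited macrophage sum of the group (288 CPM). In model_DLE_361 the acute-phase sum was 47706 CPM and Hmox1 stayed at 6.3 CPM. The part of these cells in the Hmox1 level was not tested.

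**Figure D2:**
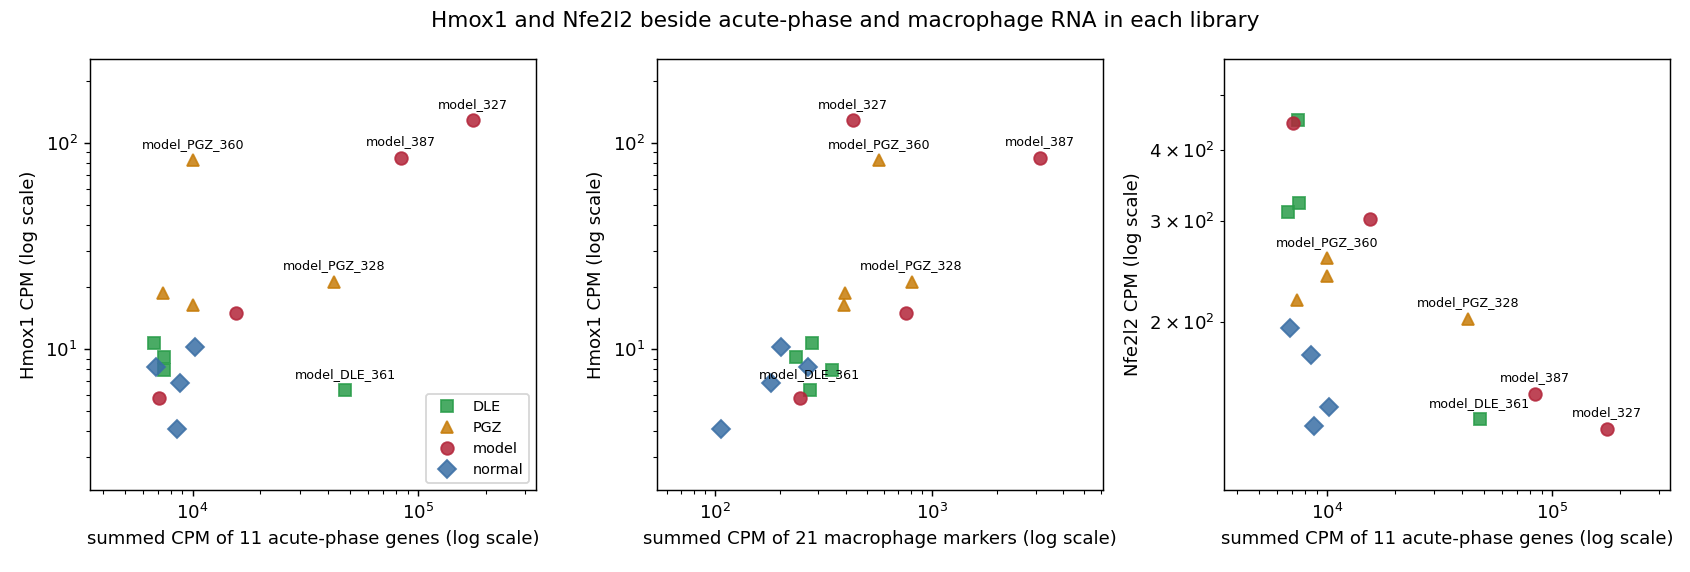
Hmox1 CPM against the summed CPM of 11 acute-phase genes (left) and of 21 macrophage markers (middle), and Nfe2l2 CPM against the acute-phase sum (right), all on log axes, 1 point per library. Libraries model_327 and model_387 combine 129 and 84.8 CPM of Hmox1 with 130 and 149 CPM of Nfe2l2.

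In the thioredoxin branch Srxn1 rose in PGZ versus normal libraries and Txnrd1 was not called in any comparison. Srxn1 (ENSMUSG00000032802, chromosome 2, 152105516 to 152111376) encodes sulfiredoxin, which repairs overoxidised peroxiredoxins. It stood at 31.1, 41.9, 23.3 and 43.2 CPM in DLE libraries, at 26.9, 101, 62.7 and 58.1 in PGZ libraries, at 60.3, 24.8, 32.2 and 47.1 in model libraries and at 16.9, 24.3, 17.5 and 20.9 CPM in normal libraries. Model and PGZ values were all above the normal values, and 1 of the 4 DLE values was not. Srxn1 averaged 62.1 ± 30.2 CPM in PGZ and 19.9 ± 3.43 CPM in normal libraries (log2 fold change 1.64, SE 0.35, edgeR adjusted p = 0.00733). The model level of 41.1 ± 15.8 CPM missed the threshold against normal (1.05, SE 0.34, 95% interval 0.32 to 1.77, adjusted p = 0.0648) and passed it in DESeq2 (adjusted p = 0.0289). DLE libraries averaged 34.9 ± 9.45 CPM and were not called (0.81, SE 0.34, adjusted p = 0.25).

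Txnrd1 (ENSMUSG00000020250, chromosome 10, 82833951 to 82897712) encodes the cytosolic reductase that recharges thioredoxin. It stood at 98.8, 80.6, 81.6 and 91.5 CPM in DLE libraries, at 82.2, 94.6, 70.8 and 79.2 in PGZ libraries, at 226, 82.6, 87.2 and 88.5 in model libraries and at 80.4, 84.8, 76.7 and 78.8 CPM in normal libraries. Only model_327 departed from a band of 70.8 to 98.8 CPM that held the other 15 libraries. The model mean of 121 ± 69.8 CPM was not called against the normal mean of 80.2 ± 3.43 CPM (log2 fold change 0.59, SE 0.27, edgeR adjusted p = 0.159), and without model_327 the log2 fold change was 0.10.

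Neither subunit gene of the enzyme that starts glutathione synthesis was called in any comparison. Gclc (ENSMUSG00000032350, chromosome 9, 77754535 to 77794485) encodes the catalytic subunit of glutamate-cysteine ligase, the rate-limiting enzyme of glutathione synthesis. It stood at 188, 355, 264 and 406.95 CPM in DLE libraries, at 220, 566, 311 and 310 in PGZ libraries, at 186, 312, 149 and 336 in model libraries and at 297, 301, 215 and 312 CPM in normal libraries. Its lowest values in the db/db groups were in model_DLE_361, model_PGZ_328, model_327 and model_387, the same 4 libraries that were low in Nfe2l2 and high in acute-phase RNA. The group means were 303 ± 97.1 CPM in DLE, 352 ± 149 in PGZ, 246 ± 91.9 in model and 281 ± 44.6 CPM in normal libraries, and no comparison was called. In model versus normal the 95% interval of the log2 fold change was -0.89 to 0.50.

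Gclm (ENSMUSG00000028124, chromosome 3, 122245557 to 122270732) encodes the modifier subunit that makes the ligase more efficient. Its means lay close together, at 161 ± 36.2 CPM in DLE, 166 ± 14.6 in PGZ, 149 ± 15.3 in model and 155 ± 29.1 CPM in normal libraries. The interval in model versus normal was -0.47 to 0.36 on the log2 scale, the difference being -0.06 (SE 0.20, edgeR adjusted p = 0.875). Slc7a11 (ENSMUSG00000027737, chromosome 3, 49892526 to 50443614) encodes the cystine importer that supplies cysteine for glutathione. It was near the limit of detection, with 5 reads in DLE, 13 in PGZ, 32 in model and 0 in normal libraries. The model reads were 10 in model_327, 0 in model_329, 21 in model_387 and 1 in model_407. Set against a floor of 3 reads over the normal group, 0.0413 CPM, the model mean of 0.3497 CPM was at least 8.46-fold higher. This bound allows for counting error of the normal reads only, not for that of the model reads or for the spread between libraries. Reads without molecular identifiers may also be copies, and the gene was not tested.

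Per kilobase of annotated exon, the order of the genes changed between genotypes. In normal libraries Osgin1 led with 313 ± 131 CPM per kb, followed by Gclc at 74.7 ± 11.9, Nfe2l2 at 42.3 ± 7.81 and Gclm at 24.6 ± 4.62 CPM per kb. Txnrd1 (11.3 ± 0.484), Keap1 (10.6 ± 1.94), Srxn1 (7.06 ± 1.21), Hmox1 (4.2 ± 1.48) and Nqo1 (2.08 ± 0.376) came below. The neighbours Txnrd1 and Keap1 overlapped within their SD. In model libraries Nfe2l2 (67.8 ± 39.0), Gclc (65.3 ± 24.4) and Osgin1 (61.1 ± 14.8 CPM per kb) overlapped at the top. Nqo1, at 7.51 ± 3.11 CPM per kb, was still the lowest of the 9 genes tested.

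The comparisons with saline-treated db/db liver asked what each treatment changed. In PGZ versus model edgeR called 0 of 9, with 0.0127% of all genes called higher and 0% lower, and DESeq2 and limma also called 0. Nqo1 and Txnrd1 had an unadjusted p under 0.05. Nqo1 averaged 20.7 ± 4.35 CPM in PGZ and 11.7 ± 4.84 CPM in model libraries (a difference of 0.82 on the log2 scale, 95% interval 0.20 to 1.45, adjusted p = 0.416), with the 2 groups overlapping. The Txnrd1 difference of -0.57 (adjusted p = 0.508) was -0.08 without model_327. Srxn1 had a log2 fold change of 0.60 (95% interval -0.12 to 1.31, adjusted p = 0.579) and Osgin1 of -0.06 (-0.76 to 0.63, adjusted p = 0.962).

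In DLE versus model edgeR called 0 of 9, with 0% of all genes called in either direction. DESeq2 called 1, Hmox1, and limma 0, where DESeq2 called 75 of all genes higher and 303 lower. Hmox1, the gene with an unadjusted p under 0.05 in edgeR, averaged 8.53 ± 1.89 CPM in DLE and 58.7 ± 58.7 CPM in model libraries (-2.78 on the log2 scale, SE 0.77, edgeR adjusted p = 0.213, DESeq2 adjusted p = 0.00865). All 4 DLE values were below 3 of the 4 model values and above that of model_329. Without model_327 and model_387 the log2 fold change was -0.29. Nqo1 averaged 17.6 ± 5.17 CPM in DLE libraries (0.59 against model, 95% interval -0.03 to 1.22, adjusted p = 0.374), and Nfe2l2 305 ± 130 CPM (0.25, -0.54 to 1.03, adjusted p = 0.789).

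Between the treatments, DLE versus PGZ, edgeR, DESeq2 and limma each called 0 of 9, where 0.00635% of all genes were called in edgeR. Hmox1 and Srxn1 had an unadjusted p under 0.05. All DLE values of Hmox1 were below all PGZ values (log2 fold change -2.02, 95% interval -3.61 to -0.43, edgeR adjusted p = 0.477). The Srxn1 difference was -0.83 (-1.55 to -0.11, adjusted p = 0.487). Within the PGZ group, model_PGZ_360 had the highest level of 9 of the 10 genes, and it also had the highest sum of 8 stellate cell markers, 648 CPM against 131 to 330 in the other PGZ libraries. No other library led its group in more than 4 genes. For Slc7a11 the lead of model_PGZ_360 rests on 5 reads, against 4 each in model_PGZ_404 and model_PGZ_408. The share of all genes that were highest in model_PGZ_360 is not given here, so the count cannot be set against it. The part of stellate cells was not tested.

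**Figure D3:**
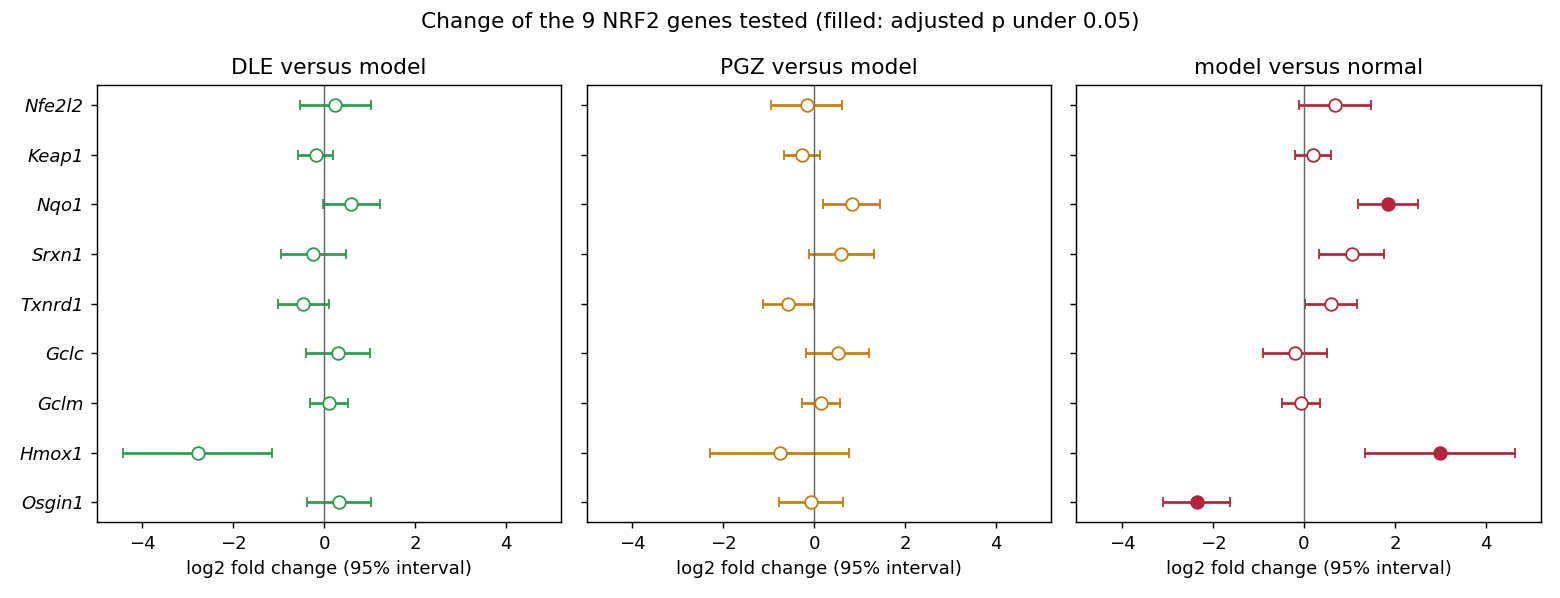
Log2 fold change of the 9 genes tested (horizontal axes) with its 95% interval in DLE versus model, PGZ versus model and model versus normal, from edgeR. Filled points have an adjusted p under 0.05: Nqo1 (1.85), Hmox1 (2.99) and Osgin1 (-2.36) in model versus normal, and none in the comparisons with the model group.

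Against normal liver, the treated groups had more Nqo1 and less Osgin1 RNA, as given above. In PGZ versus normal 2 of 9 genes were called higher (Nqo1 and Srxn1) and 1 lower, where 6.15% of all genes were higher and 6.08% lower. In DLE versus normal 1 was called higher and 1 lower, with 1.84% and 1.7% of all genes, 3.54% in either direction. Hmox1 in DLE libraries was 8.53 ± 1.89 CPM against 7.35 ± 2.59 CPM in normal libraries (log2 fold change 0.21, 95% interval -1.35 to 1.77, edgeR adjusted p = 0.931).

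Other genes of the pathway were taken from lists of 46 further NRF2 targets, of which 43 were matched and 42 tested. In model versus normal 7 of the 42 rose, 1 fell and 34 were not called (median log2 fold change 0.66, against 0.07 over all genes, of which 6.18% rose and 2.9% fell). In PGZ versus normal 15 rose, 1 fell and 26 were not called (median 0.79, against 0.03 over all genes, of which 6.15% rose and 6.08% fell). In DLE versus normal 8 rose, 1 fell and 33 were not called (median 0.63, against 0.04 over all genes, of which 1.84% rose and 1.7% fell). The medians were the same with Akr1b7, which had no read in normal libraries, set at its bound. No target was called by edgeR in PGZ versus model (9 with an unadjusted p under 0.05, 2 called by DESeq2 and 7 by limma), in DLE versus model (5, 0 and 0) or in DLE versus PGZ (7, 0 and 5). Of all 15744 genes, 1539, 2249 and 1516 had an unadjusted p under 0.05 in edgeR in these comparisons. In PGZ versus model DESeq2 called 79 genes higher and 48 lower, and limma 760 and 838. In DLE versus PGZ limma called 375 higher and 311 lower.

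Of 12 glutathione enzyme genes tested, 10 had a positive log2 fold change in model, 11 in PGZ and 11 in DLE versus normal. The medians were 0.75, 0.86 and 0.91, against 0.07, 0.03 and 0.04 over all genes. Gstp1, a glutathione transferase, fell to 192 ± 57.1 CPM in model, against 991 ± 418 CPM in normal libraries (log2 fold change -2.37, edgeR adjusted p = 0.00135), and fell likewise in PGZ (-2.67) and DLE libraries (-2.51). Gsta1, another transferase, averaged 5.6 ± 5.21 CPM in model and 0.613 ± 0.609 CPM in normal libraries (3.24, adjusted p = 0.0384), and Gsr, the reductase that regenerates glutathione, rose with a log2 fold change of 0.83 (adjusted p = 0.0479). With PGZ, Gstm3 averaged 292 ± 161 CPM against 30.6 ± 11.9 CPM in normal libraries (3.25, adjusted p = 0.00208), and Gstm4 rose with 1.63 (adjusted p = 0.00417). The Gstp1 and Gstm3 calls held with any 1 library left out. That of Gsta1 in model versus normal was lost in 5 of 16 such fits, including those without model_327 and model_407, and that of Gsr in 12, including those without model_327 and model_387. Transferases of a class share sequence, so the division of reads among them is uncertain. Of 12 tested, 2 rose and 1 fell in model, 4 rose and 1 fell in PGZ, and 1 rose and 1 fell in DLE versus normal. A single call among 12 is not far from the shares of all genes given above.

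NADPH is the reducing power for NQO1 and for glutathione and thioredoxin reductases. Of 6 genes of enzymes that make it or work in the pentose phosphate pathway, 4 rose in PGZ, 2 in model and 1 in DLE versus normal. Of all genes, 6.15%, 6.18% and 1.84% rose in these comparisons. With PGZ, the pentose phosphate enzyme gene Tkt averaged 168 ± 19.3 CPM against 70 ± 6.69 CPM in normal libraries (log2 fold change 1.26, edgeR adjusted p = 0.000699), and malic enzyme, Me1, 199 ± 34.5 against 36.3 ± 16.1 CPM (2.45, adjusted p = 0.00275). Pgd rose in model (1.27, adjusted p = 0.0242) and PGZ libraries (1.37, adjusted p = 0.013). G6pdx, which starts the pentose phosphate pathway, was called in model versus normal with 13.3 ± 18.4 against 2.62 ± 0.358 CPM (2.35, adjusted p = 0.0418). Its level was 40.8 CPM in model_387, and without that library its log2 fold change was 0.67 (adjusted p = 0.289). The sum of 10 neutrophil markers was 2175 CPM in model_387, 2.37 to 22.6 CPM in the other model libraries and 0.95 to 1.51 CPM in normal libraries, where up to 7 of the 10 were at 0. Of 8 such markers tested, 4 rose in model versus normal, against 6.18% of all genes. The part of neutrophils in the G6pdx level was not tested. The Tkt, Me1 and Pgd calls in PGZ libraries held with any 1 library left out, and that of Pgd in model libraries was lost in 6 of 16 such fits, including those without model_327 and model_387.

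Of 11 detoxifying genes 3 rose in DLE, 4 in PGZ and 1 in model versus normal, where 1.84%, 6.15% and 6.18% of all genes rose. The single call in model libraries is near that share. Cbr1, a carbonyl reductase, averaged 143 ± 57.8 CPM in DLE and 123 ± 21.4 in PGZ libraries, against 45.8 ± 4.43 CPM in normal libraries (log2 fold changes 1.64 and 1.43, edgeR adjusted p = 0.00545 and 0.00755). The carboxylesterase gene Ces1g averaged 225 ± 46.3 CPM in DLE and 168 ± 28.1 in PGZ against 70.4 ± 21.7 CPM in normal libraries. Akr1b7, an aldose reductase family gene, had 44 reads in DLE, 25 in PGZ and 30 in model libraries and 0 in normal libraries. These group means were at least 12.3-fold, 6.82-fold and 8.03-fold higher against the same floor, a bound with the same limits as for Slc7a11. The exporter gene Abcc4 averaged 7.37 ± 4.24 CPM in DLE, 12.9 ± 5.68 in PGZ and 5.46 ± 2.43 in model libraries, against 0.702 ± 0.355 CPM in normal libraries (adjusted p = 0.00182, 0.000331 and 0.00507). The Abcc4 and Cbr1 calls held with any 1 library left out, whereas that of Ces1g was lost in 3 of 16 such fits in DLE and 6 in PGZ.

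Of 6 genes of iron and haem handling, 1 rose in model, 2 in PGZ and 1 in DLE versus normal. Of all genes, 6.18%, 6.15% and 1.84% rose in these comparisons, and a single call among 6 says little about a list. Fth1, the ferritin heavy chain gene, rose in model (2532 ± 759 against 1017 ± 355 CPM in normal libraries, edgeR adjusted p = 0.0188) and PGZ libraries (adjusted p = 0.0249). The haem transporter gene Slc48a1 rose in PGZ (log2 fold change 0.72, adjusted p = 0.0134) and the biliverdin reductase gene Blvrb in DLE libraries (0.87, adjusted p = 0.0445). Among 4 thioredoxin, peroxiredoxin and glutaredoxin genes, the glutaredoxin gene Glrx was called, in DLE versus normal (0.93, adjusted p = 0.0347). That is 1 call among 4, where 1.84% of all genes rose. With 1 library left out in turn, the Fth1 call in model libraries held in all 16 fits, while Fth1 in PGZ lost 5, Slc48a1 lost 1, Blvrb lost 13 and Glrx lost 10. Of 17 regulators of NRF2, including small MAF proteins and parts of the ligase that degrades it, none was called in model versus normal by edgeR (4 with an unadjusted p under 0.05, 0 by DESeq2 and 3 by limma). Of all 15744 genes, 4404 had an unadjusted p under 0.05 there, and limma called 2243 higher and 2044 lower. The repressor gene Bach1, whose protein competes with NRF2 at its elements, was lower in PGZ (38.2 ± 5.53 CPM) than in normal libraries (63.4 ± 4.56 CPM, log2 fold change -0.73, adjusted p = 0.0194), a call lost in 4 of 16 fits with 1 library left out. It was the single call among the 17 in PGZ versus normal, near the 6.08% of all genes that fell.

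**Figure D4:**
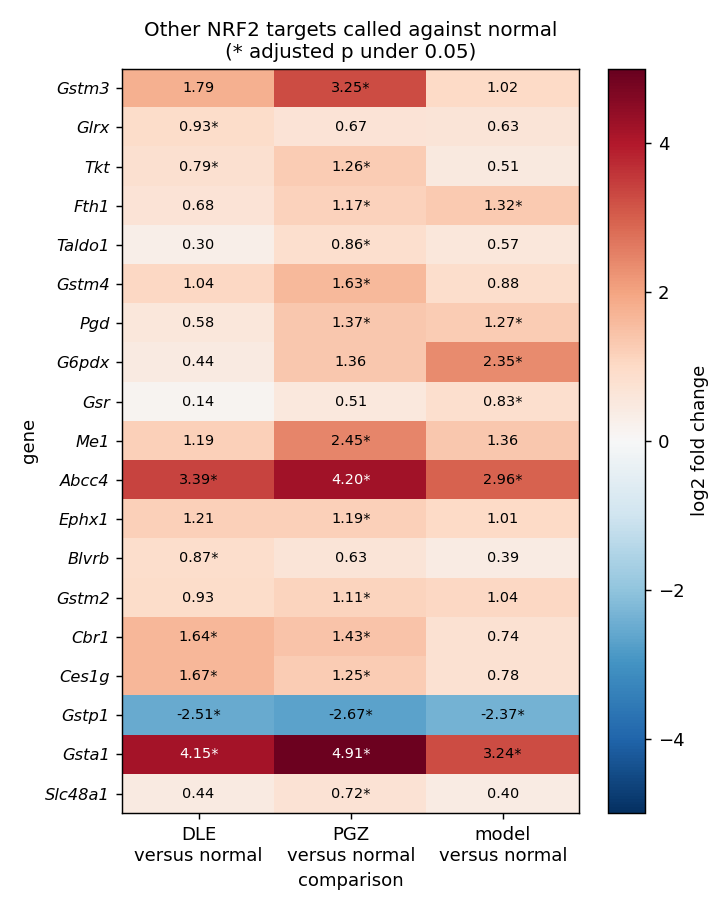
Log2 fold change against normal (colour and number) of every other NRF2 target called in at least 1 of DLE, PGZ or model versus normal, with Akr1b7 left out because normal libraries had no read of it. Asterisks mark an edgeR adjusted p under 0.05; Gstp1 is negative in all 3 columns and Abcc4 is positive and called in all 3.

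The genes whose profile over the 16 libraries was most like that of a called NRF2 gene were found by the root mean square difference of centred log2(CPM + 0.5) among 13603 genes. For Nqo1, which itself varied by 1.04 around its mean, they were Slc16a7 (difference 0.36), Tcim (0.40) and Car2 (0.43). Slc16a7, a monocarboxylate transporter gene, averaged 81.1 ± 20.4 CPM in DLE, 90.3 ± 22.8 in PGZ, 54.5 ± 21.8 in model and 22.9 ± 5.19 CPM in normal libraries. For Osgin1, Dlgap1 (0.42) and Fmn2 (0.44) were among them. Their means in the db/db groups were 0.58 to 0.87 CPM for Dlgap1 and 0.056 to 0.32 CPM for Fmn2. These levels are near or below the 0.5 CPM added, which makes the fall of both genes look smaller. For Hmox1 they were Ier3 (0.53), Col4a1 (0.55) and ENSMUSG00000092283 (0.56), of which Ier3 reached 38.5 CPM in a model library against at most 0.617 CPM in normal libraries.

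Within groups the 10 genes did not vary together in a way that passed a test. After removal of group means, 0 of 45 pairs of genes had an adjusted p under 0.05 by Pearson's r or by Spearman's rho (permutation within groups, 16 libraries, two-sided), and 1 had an unadjusted p under 0.05 by Pearson's r. That pair was Keap1 and Txnrd1 (r = 0.459, p = 0.00579, adjusted p = 0.261; rho = 0.6, p = 0.0132, adjusted p = 0.551), with r = 0.592 without the 2 libraries farthest from the Keap1 median. Nfe2l2 and Gclc had r = 0.614 (permutation p = 0.0524, adjusted p = 0.507; rho = 0.603, p = 0.06, adjusted p = 0.551), and 0.481 without the 2 libraries farthest from the Nfe2l2 median. With 16 libraries only strong relations could be detected.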

How the data were processed

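Liver RNA was extracted with TRIzol and DNase-treated, per the labels. The authors deposited raw counts, whole numbers for each Ensembl gene. Per the submitters' processing notes, HISAT2 2.1.0 and StringTie 1.3.3b were among the tools and GRCm38 was the build, with no roles stated. The sources used here give no annotation, strand setting or treatment of multiply mapped reads. The 4 columns of a white tea extract group held no value, so that group was not analysed here.

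Symbols came from the count table, and coordinates and exon lengths from GENCODE M21 (GRCm38). The fit used edgeR 4.0.16 in R 4.3.3: filterByExpr, TMM, and a robust quasi-likelihood fit of the 4 groups together, two-sided. SE and 95% intervals derive from the F statistic. The procedure was tested on simulated counts. Replicate pairs differed far beyond sampling noise (chi-square per gene at least 29.9). Alternatives were RLE and upper quartile scaling, no filter, at least 1 CPM in 4 libraries with 200 reads, only the groups compared, DESeq2 1.42.0, limma 3.58.1 voom with quality weights, each library left out, and the libraries high in acute-phase RNA left out. Within-group correlations used 100000 permutations (Python 3.11.15). Promoter windows were those of RefSeq, since no genome was at hand for the longer window planned.

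The genes, lists and tests were chosen with earlier results of these data known. Named were all 10 genes, up to 3 called genes per list and comparison with the smallest p, and the 3 likest genes, of which 1 is not reported here. The plot of other targets shows every called one. Chosen after their values were seen were the per-library remarks on marker sums.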

Additional observations from a re-analysis of the deposited data

Results flagged for a closer look

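Among 40 combinations of gene and group, 5 held a library far from the other 3, where chance flags about 1 group in 20. Txnrd1 stood at 226 CPM in model_327, against 82.6 to 88.5 CPM in the other model libraries. Hmox1 reached 82.3 CPM in model_PGZ_360, against 16.4 to 21.3 CPM in the other PGZ libraries. Osgin1 was at 222 CPM in model_329, against 138 to 149 CPM in the other model libraries. Gclc was low in normal_376, with 215 CPM against 297 to 312 CPM in the other normal libraries. Slc7a11 was at 0 CPM in model_PGZ_328, against 0.176 to 0.202 CPM in the other PGZ libraries, which is a matter of 0 reads against 4 or 5.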

How the results depend on the processing

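Nqo1 and Osgin1 kept their direction and their call in all 3 comparisons with normal under every alternative run. The count of the 9 genes called stayed at 0 in PGZ versus model and DLE versus PGZ, and at 2 in DLE versus normal, with any 1 library left out. It ranged from 2 to 4 in model versus normal, 3 to 4 in PGZ versus normal and 0 to 1 in DLE versus model. DESeq2 called 1 in DLE versus model. In PGZ versus normal 5 were called with only the groups compared and 5 with limma. With only the groups compared, 2215 of 14739 genes were higher and 2148 lower there. With limma 3177 of 15744 were higher and 3117 lower. Differences of the 9 genes that were not called changed sign in places, and no called one did. With any 1 library left out, their log2 fold changes ranged from -0.38 to 0.24 for Nfe2l2 in PGZ versus model, -0.0036 to 0.65 for Nfe2l2 in DLE versus model, -0.076 to 0.18 for Keap1 in DLE versus PGZ and -0.13 to 0.069 for Keap1 in PGZ versus normal. Likewise they ranged from -0.14 to 0.15 for Keap1 in DLE versus normal, -0.21 to 0.14 for Osgin1 in PGZ versus model, -0.41 to 0.0074 for Srxn1 in DLE versus model and -0.60 to 0.034 for Txnrd1 in DLE versus model. Likewise they ranged from -0.051 to 0.088 for Txnrd1 in PGZ versus normal, -0.40 to 0.11 for Gclc in DLE versus PGZ, -0.0040 to 0.49 for Gclc in PGZ versus normal and -0.074 to 0.28 for Gclc in DLE versus normal. Likewise they ranged from -0.18 to 0.024 for Gclm in model versus normal, -0.014 to 0.23 for Gclm in DLE versus model, -0.17 to 0.078 for Gclm in DLE versus PGZ and -0.025 to 0.18 for Gclm in PGZ versus normal. Likewise they ranged from -0.072 to 0.18 for Gclm in DLE versus normal. The signs turned without model_327 and model_387, to -0.30 for Nfe2l2 in DLE versus model, 0.041 for Txnrd1 in DLE versus model, 0.20 for Gclc in model versus normal, -0.097 for Gclc in DLE versus model and 1.73 for Hmox1 in PGZ versus model. The signs turned without the 4 libraries high in acute-phase RNA, to -0.060 for Nfe2l2 in DLE versus model, -0.041 for Keap1 in DLE versus PGZ, -0.14 for Keap1 in DLE versus normal, -0.026 for Nqo1 in DLE versus model and -0.10 for Osgin1 in DLE versus model. The signs turned without the 4 libraries high in acute-phase RNA, to 0.20 for Gclc in model versus normal and 1.88 for Hmox1 in PGZ versus model. The signs turned with limma, to -0.0056 for Keap1 in DLE versus PGZ, 0.0089 for Keap1 in PGZ versus normal, -0.036 for Txnrd1 in PGZ versus normal, 0.086 for Gclc in model versus normal and -0.026 for Gclc in DLE versus model. The signs turned with limma, to -0.058 for Gclm in DLE versus model, -0.092 for Gclm in DLE versus normal and 0.66 for Hmox1 in PGZ versus model. The signs turned with upper quartile scaling, to 0.021 for Keap1 in PGZ versus normal and 0.0019 for Osgin1 in PGZ versus model. The cause was not tested.

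Of the 59 other targets and regulators, model versus normal called 8, PGZ versus normal 17, DLE versus normal 9 and the other comparisons 0. Of all genes, edgeR called 9.08% in model, 12.2% in PGZ and 3.54% in DLE versus normal. With limma the counts were 26 in model versus normal, 34 in PGZ versus normal, 14 in DLE versus normal, 10 in PGZ versus model and 5 in DLE versus PGZ. Over all 15744 genes limma called 2243 higher and 2044 lower in model versus normal. These numbers were 3177 and 3117 in PGZ versus normal and 772 and 734 in DLE versus normal. In PGZ versus model they were 760 and 838, and in DLE versus PGZ 375 and 311. DESeq2 called 2 of the 59 in PGZ versus model, with 79 of all genes higher and 48 lower. With no filter 5 were called in model versus normal and 5 in DLE versus normal. With only the groups compared the count was 2 in model versus normal, where 110 of 14486 genes rose and 116 fell. In PGZ versus normal it was 30, where 2215 of 14739 genes rose and 2148 fell. Without model_327 and model_387 the counts of the 59 were 26 in PGZ and 17 in DLE versus normal. They were 1 in PGZ versus model and 1 in DLE versus PGZ. Without the 4 libraries these counts were 31, 16, 1 and 3, with 2247 of 16257 genes higher and 2430 lower in PGZ versus normal. With any 1 library left out the counts of the 59 ranged from 4 to 11 in model versus normal, 10 to 22 in PGZ versus normal, 4 to 11 in DLE versus normal and 0 to 1 in DLE versus model. No paired analysis was possible because the groups share no animal numbers. Depth limits Slc7a11 and Akr1b7, which had few reads.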

Other observations

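Genes under the stress factor ATF4, which shares some targets such as Slc7a11 with NRF2, rose for 5 of 15 in model versus normal, with 10 not called, where 6.18% of all genes rose. Ddit4, a stress-induced inhibitor of mTORC1, averaged 17.8 ± 15.1 CPM in model and 2.51 ± 1.27 CPM in normal libraries (log2 fold change 2.83, edgeR adjusted p = 0.00614). The hormone gene Fgf21 rose in model (log2 fold change 4.22, adjusted p = 0.0226) and PGZ libraries (3.83, adjusted p = 0.0255) against normal in edgeR; without model_327 the model value was 1.83 (adjusted p = 0.0846). Slc3a2, which encodes the heavy chain that the cystine importer needs, averaged 54.2 ± 33.6 CPM in model and 24.4 ± 4.95 CPM in normal libraries (1.15, adjusted p = 0.0252). With 1 library left out in turn, 3 of 16 fits lost the Slc3a2 call, 5 and 6 those of Fgf21 in model and PGZ, and none that of Ddit4. In PGZ versus normal 1 of 15 ATF4 genes rose and 1 fell, near the shares of all genes, 6.15% and 6.08%. In DLE versus normal edgeR called 0 of 15 (3 with an unadjusted p under 0.05, 2 called by DESeq2 and 3 by limma). Of all genes, 3.54% were called there by edgeR. Of 15744 genes, 2488 had an unadjusted p under 0.05 in edgeR. DESeq2 called 576 higher and 495 lower, and limma 772 and 734.

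Of the genes around the aryl hydrocarbon receptor, another activator of Nqo1, 6 of 8 were tested. In model versus normal 1 of the 6 rose, where 6.18% of all genes rose. In PGZ versus normal 1 of the 6 fell, where 6.08% of all genes fell. A single call among 6 is not far from these shares. The receptor gene Ahr rose in model libraries, with 47.3 ± 12.9 against 24.5 ± 8.62 CPM in normal libraries (log2 fold change 0.95, edgeR adjusted p = 0.0346). Its target Cyp1a2 fell in PGZ libraries, with 278 ± 64.2 against 1165 ± 285 CPM in normal libraries (-2.07, adjusted p = 0.0204). The Ahr call was lost in 5 of 16 fits with 1 library left out and that of Cyp1a2 in 2. No gene of this list was called in DLE versus normal by edgeR, where 2 had an unadjusted p under 0.05, DESeq2 called 0 and limma 2. Of all 15744 genes, 2488 had an unadjusted p under 0.05 in edgeR there, and limma called 772 higher and 734 lower.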
